A study of Caenorhabditis elegans with 2 samples.

Results

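CEC-7 takes its name from a chromodomain, and its binding was examined at the heat shock and DNAJ genes of Caenorhabditis elegans. The members were the protein-coding genes named hsp, with a number and with or without a second number after a point, the dnj genes, hsf-1 and the HSP90 gene daf-21, which the gene table lists as hsp-90. The gene table held 54 of them among 19971 protein-coding genes on the 6 nuclear chromosomes. They comprised 24 hsp genes, 29 dnj genes and hsf-1. Chromatin came from whole young adult hermaphrodites with a germline that carried fem-2(b245) on chromosome III and were grown at 20 degrees Celsius. The fem-2 gene acts in sex determination, and all material shared this mutation, so no wild-type group was compared. A polyclonal rabbit antibody against CEC-7, the product of Y37D8A.11, was used in 1 ChIP library. An input DNA library and other replicates were not analysed here, and the labels name no heat shock. Whole worms mix germline and somatic tissues, so a peak cannot be assigned to a tissue.

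Heat shock proteins are chaperones that keep other proteins folded. HSP70 proteins bind unfolded stretches with the help of J-domain proteins of the DNAJ family, which bring them their clients and stimulate their ATPase, and HSP90 acts later on clients such as kinases and receptors. Small heat shock proteins hold unfolded proteins without using ATP. Some chaperone genes are transcribed in unstressed cells. In the worm, hsp-70 and hsp-16 genes such as hsp-16.2 are nearly silent until heat activates HSF-1, the transcription factor of the heat shock response. Chromodomains in many proteins bind methylated histone tails.

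A gene was counted as bound when a deposited peak overlapped its body or the 500 bp on either side. Peak positions are on WormBase WS220 and gene positions on WBcel235. The shift between these builds was taken as at most about 100 bp, so offsets between peak and gene carry that uncertainty. The deposited list held 2767 peaks, and each had a score by the authors, used here only to rank peaks within this list. Scores ran from 50.02 to 1951.83 with a median of 127. With 1 library there is no replicate error and no test, sequencing depth is unknown, and shares are given beside those of all protein-coding genes.

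Of the 54 heat shock and DNAJ genes, 23 were bound (42.6%), against 17.5% of all protein-coding genes. Of the 8 constitutive chaperone genes, 7 were bound (87.5%), against 0 of the 9 inducible genes, namely the 8 hsp-16 genes and hsp-70. Among the 7 were hsp-4, hsp-6 and hsp-60, which are also induced by stress in their organelles. The inducible class was set by the names hsp-16 and hsp-70 and does not hold all stress-induced genes. Heat induction was not measured here in either class, so the contrast is not one of heat-induced against other genes. Of the 7 other small heat shock genes 1 was bound (14.3%, close to the share of all genes), as were 14 of the 29 dnj genes (48.3%) and hsf-1 itself. Whether the classes differ beyond replicate error was not tested. The classes also differed in chromosome and length. The inducible genes had a median length of 624 bp and the constitutive genes of 2695 bp, and across the genome the share of bound genes rose from 9.77% of genes under 1 kb to 28.0% of genes over 4 kb. When each gene was given the share of bound genes with the same chromosome and length range, the mean was 23.4% for the constitutive class, 7.02% for the inducible class, 11.5% for the other small heat shock genes and 23.7% for dnj genes. The inducible class, at 0 of 9, thus lay near its mean, and the constitutive class, at 7 of 8, above its own.

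**Figure D1:**
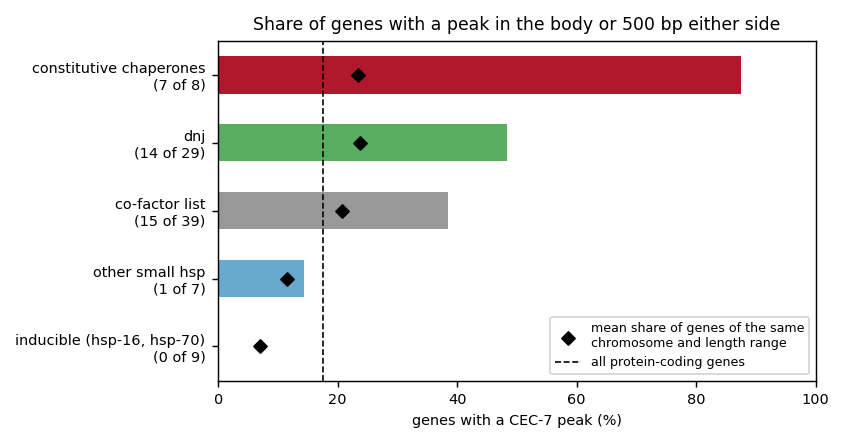
Share of genes with a CEC-7 peak in the gene body or 500 bp either side (percent, bars), by class, from 1 ChIP library. Diamonds give the mean share over all protein-coding genes of the same chromosome and length range, and the dashed line marks the 17.5% of all protein-coding genes. The constitutive class stands at 87.5% against a diamond at 23.4%, and the inducible class at 0 against 7.02%.

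The cytosolic constitutive chaperones were hsp-1, hsp-110 and hsp-90. The gene hsp-1 (CELE_F26D10.3, chromosome IV) encodes the HSP70 that is present in all cells. Its peak at IV 17278828 to 17282931 scored 380.23, ranked 357 of 2767 in the list and 36 among the 434 peaks of chromosome IV. It covered 100% of the gene body, ran past both gene ends, by 1601 bp at the end with the higher coordinate, and also touched 1 other gene. The HSP110 gene hsp-110 (CELE_C30C11.4, chromosome III), whose product helps HSP70 release nucleotide, had a peak of 2938 bp that scored 137.12 and covered 91.7% of the gene. The HSP90 gene (CELE_C47E8.5, chromosome V) had a peak at V 14686210 to 14688982 with a score of 52.47, rank 2671, just above the lowest listed score. That peak nevertheless spanned 97.9% of the gene body. It ran on by 443 bp past the end with the higher coordinate and also touched 1 other gene. Of these 3 genes hsp-1 had the peak with the highest score, and the highest score at the HSP90 gene was the lowest such value of all bound members.

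Of the organelle chaperones, hsp-4, hsp-6 and hsp-75 were covered over nearly the whole body, hsp-60 in part, and hsp-3 was unbound. The gene hsp-4 (CELE_F43E2.8, chromosome II), an HSP70 of the endoplasmic reticulum, had a peak of 2621 bp with a score of 124.23 over 100% of its body. The mitochondrial HSP70 gene hsp-6 (CELE_C37H5.8, chromosome V) had a peak of 2777 bp with a score of 77.80, also over 100% of its body. The genes hsp-4, hsp-6 and hsp-60 are also induced by stress in these organelles and were counted as constitutive because unstressed animals express them. The mitochondrial chaperonin gene hsp-60 (CELE_Y22D7AL.5, chromosome III) differed from the rest. Its peak of 1468 bp, with a score of 81.56, lay wholly inside the gene and covered 24.2% of its 6062 bp.

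The peak with the highest score of the whole list lay at hsp-75 (CELE_R151.7, chromosome III), the worm relative of the mitochondrial HSP90 protein TRAP1. This peak at III 7223628 to 7233615 scored 1951.83 and was 9988 bp wide, against a median width of 1987 bp over the list. Only 30.8% of it fell in hsp-75, and it touched 5 protein-coding gene bodies in all, so it cannot be credited to hsp-75 alone. A second peak of 1075 bp, with a lower score of 65.75, lay beside it, over the gene end with the lower coordinate. Both together covered 98.8% of the body of hsp-75. The other endoplasmic reticulum HSP70 gene, hsp-3 (CELE_C15H9.6), was the only unbound member of the class. It lies on X, where 0.183% of protein-coding genes were bound, and its nearest peak was 1261 kb away. Thus hsp-4 and hsp-3, which encode HSP70 proteins of the same organelle, differed in the presence of a peak, and lie on chromosomes with unlike shares of bound genes.

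**Figure D2:**
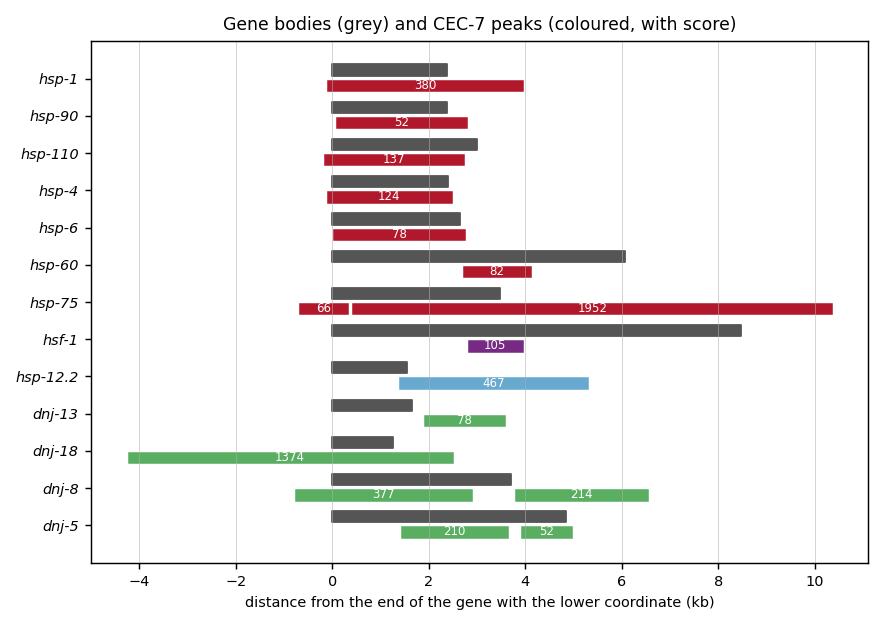
Gene bodies (grey bars) and CEC-7 peaks (coloured bars, with the authors' score printed inside) at 13 heat shock and DNAJ genes, as distance in kb from the gene end with the lower coordinate. Peaks at hsp-4, hsp-6, hsp-90 and hsp-110 begin and end within 443 bp of the gene ends, and those at hsp-60 and hsp-1 do not. The widest peak, at hsp-75, is 9988 bp.

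At most of the constitutive chaperones, peaks covered nearly the whole gene body, at hsp-75 with 2 peaks together. At least 90% of the body lay within peaks at 6 of the 8 constitutive genes (75.0%), against 4.47% of all protein-coding genes and 1 of 29 dnj genes. Counting bound genes only, it was 85.7% of constitutive genes, 7.14% of dnj genes and 25.5% of all protein-coding genes. Among genes of 2 to 4 kb, bound or not, the figures were 6 of 7 constitutive genes and 0 of 9 dnj genes, with 5.49% of all protein-coding genes of that length. Among bound genes of that length they were 6 of 6 constitutive genes, 0 of 4 dnj genes and 28.3% of all protein-coding genes. At 4 of the constitutive genes, hsp-4, hsp-6, hsp-90 and hsp-110, the peak matched the gene in both directions, with at least 90% of the body covered and at least 80% of the peak inside the gene. Over all protein-coding genes 1.50% met both conditions, as did 2.46% of those of 2 to 4 kb, the range of all 4, and 12.7% of the bound genes in that range. Both limits on coverage were chosen after the values were seen. Such coverage was also seen at peaks low in the list, as hsp-6 and hsp-90 ranked 2045 and 2671 of 2767.

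No hsp-16 gene had a peak, although their surroundings differed. These genes encode small heat shock proteins, and hsp-16.2 is widely used as a reporter of heat shock. All 8 lie on chromosome V, where 8.03% of protein-coding genes were bound, and 3.84% of those under 1 kb. They form 3 groups of neighbours and so are not independent cases. The 4 genes hsp-16.1, hsp-16.48, hsp-16.49 and hsp-16.11 lie side by side, with 0 peaks within 50 kb and the nearest between 123 and 125 kb away. On chromosome V, 23.2% of protein-coding genes were more than 100 kb from a peak, so this distance was not rare there. The pair hsp-16.2 and hsp-16.41 lay 13.2 and 12.3 kb from the nearest peak, and the pair hsp-16.20 and hsp-16.21 lay 1.89 and 3.47 kb away, with 4 peaks within 50 kb. With flanks of 2000 bp, hsp-16.20 became the single inducible gene counted as bound, when 23.0% of all protein-coding genes were.

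The inducible hsp-70 (CELE_C12C8.1) lies on chromosome I, which is rich in peaks. It was unbound and its nearest peak was 6.13 kb away, although 8 peaks lay within 50 kb. On chromosome I 29.6% of protein-coding genes were bound, and 32.0% of those of 2 to 4 kb, the range that holds hsp-70 at 2195 bp. Its relative hsp-1 has nearly the same length, 2372 bp, and was covered by a peak throughout, on a chromosome where 16.1% of genes were bound.

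Among the other small heat shock genes the share bound, 1 of 7, was near the 17.5% of all protein-coding genes. The bound gene was hsp-12.2 (CELE_C14B9.1, chromosome III), with a score of 466.56, rank 248. That peak of 3967 bp covered 12.4% of the gene, only 4.87% of it lay there, and most of it ran over a neighbouring gene or beyond. The unbound genes on autosomes were hsp-12.1 on I, with a peak 4.70 kb away, the neighbours hsp-12.3 and hsp-12.6 on IV, at 15.0 and 13.1 kb, and hsp-17 on V, at 30.0 kb. The genes hsp-25 and hsp-43 lie on X more than 1000 kb from a peak. Over the 16 small and inducible genes together, hsp-12.2 was the only bound one (6.25%, beside 17.5% of all protein-coding genes and a mean of 9.0% for genes of the same chromosome and length range).

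The gene hsf-1 (CELE_Y53C10A.12, chromosome I) encodes the regulator of the inducible genes. It carried a single peak of 1179 bp at I 11956296 to 11957474, with a score of 105.02 and rank 1603. The peak lay wholly inside the gene and covered 13.9% of its 8476 bp. Of protein-coding genes over 4 kb on chromosome I, 40.7% were bound. All 3 listed genes for proteins of the complex that holds HSF-1 inactive were bound as well, 1 of them through the flank alone. This stands beside 17.5% of all protein-coding genes and a mean of 20.3% for genes of the same chromosome and length range. The 3 genes come from a list chosen with earlier results of these data known. DDL-1 forms an inhibitory complex with HSB-1 and HSF-1, and ddl-1 (chromosome II) lay wholly within a peak that scored 643.53. At ddl-2 (chromosome II) there were 3 peaks, the highest with a score of 349.32, over 39.7% of the gene. At hsb-1 (chromosome IV) the peak, with a score of 192.39, lay 271 bp outside the gene body.

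**Figure D3:**
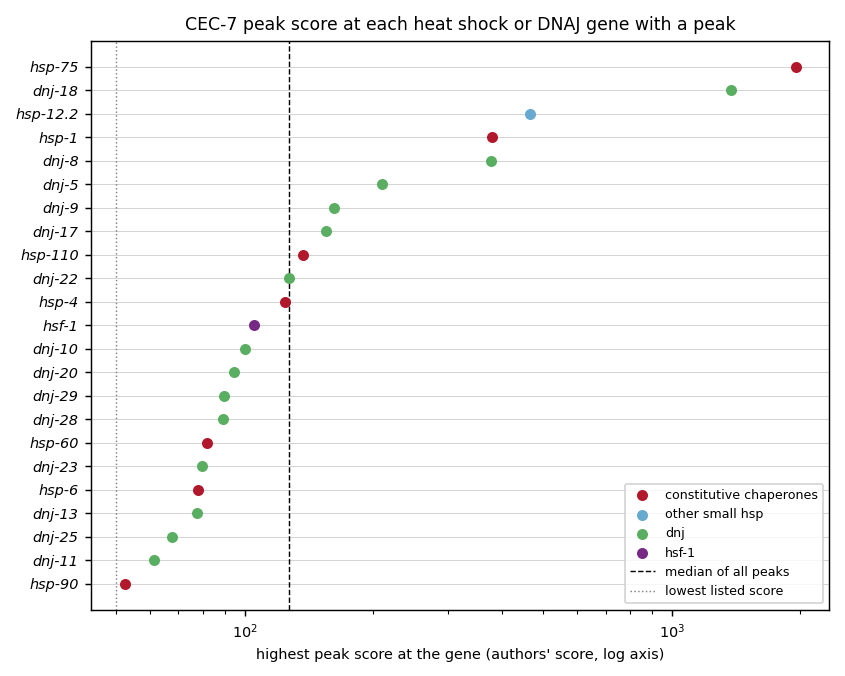
Highest CEC-7 peak score (authors' score, log axis) at each of the 23 bound heat shock and DNAJ genes, coloured by class, from 1 library. Dashed and dotted lines mark the median of 127 and the lowest score of 50.02 over all 2767 peaks. Beyond hsp-75 at 1951.83 and dnj-18 at 1374.41, the scores ran from 52.47 at hsp-90 to 466.56 at hsp-12.2.

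The DNAJ genes were bound at 14 of 29, beside 17.5% of all protein-coding genes, by peaks of mostly low score. The 14 bound dnj genes had a median highest score of 97.3, against 176 over all 3501 bound protein-coding genes. Their coverage was partial, with a median of 35.7% of the body, against 56.9% over all bound protein-coding genes. This comparison was not matched for gene length, which ran from 1008 bp at dnj-22 to 14399 bp at dnj-25 among the bound dnj genes. At 3 of the 14 the peak lay in the flank alone, as at 484 of the 3501 bound protein-coding genes. The 5 with the highest scores were dnj-18, dnj-8, dnj-5, dnj-9 and dnj-17. The gene dnj-18 (chromosome III) lay wholly under a peak of 6776 bp that scored 1374.41, rank 8, and touched 5 protein-coding gene bodies. At dnj-8 (chromosome II) the highest score was 376.89, and a second peak of 2790 bp scored 214.49. The highest scores were 209.80 at dnj-5 and 161.75 at dnj-9, both on chromosome II, and 154.97 at dnj-17 on chromosome III. Of these 5 genes, only dnj-18 was covered over its whole length.

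By role, the J-domain partners of cytosolic HSP70 were split. The gene dnj-13, whose product acts with HSP-1 and HSP-110 in dissolving aggregates, had a peak with a score of 77.51 that began 224 bp outside the gene. The genes dnj-12 and dnj-19, for the other main class of cytosolic J-domain proteins, were unbound, with peaks 10.8 and 29.1 kb away. The genes given for each compartment are examples, not all of its J-domain genes. Among those for proteins of the endoplasmic reticulum, dnj-20 carried 2 peaks (highest score 94.37). The gene dnj-29, for a SEC63 relative that serves protein import, carried 3 (highest score 89.51). The gene dnj-27, for a J-domain protein with thioredoxin folds, had none within 10.4 kb despite its 9476 bp. For mitochondria, dnj-10 had a peak with a score of 100.22 that ended 417 bp outside the gene, and dnj-21, for a part of the import motor, had its nearest peak 1.20 kb away.

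More specialised J-domain genes also varied. The gene dnj-25, for auxilin, which strips clathrin from vesicles, had a peak with a score of 67.57 over 10.0% of its 14399 bp. The gene dnj-11, whose relatives act at the ribosome, had a peak with a score of 61.43 over 68.3% of its body. The gene dnj-22 on V had its peak, with a score of 127.16, 295 bp outside the gene. The genes dnj-23 and dnj-28 had scores of 79.27 and 88.93, with 36.8 and 25.4% of the body covered. On X, dnj-14, for the cysteine string protein of synapses, and dnj-7 were unbound, with peaks 2641 and 154 kb away. The remaining unbound dnj genes were dnj-4 and dnj-30 on I, dnj-16 and dnj-24 on III, dnj-1, dnj-2, dnj-15 and dnj-26 on IV, and dnj-3 on V, with the nearest peak between 1.88 and 34.0 kb away.

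The members on either side of the 500 bp limit were few. Inside it, dnj-13, dnj-22 and dnj-10 counted as bound through the flank alone, at 224, 295 and 417 bp. Outside it, the closest were dnj-21 at 1.20 kb, dnj-4 at 1.88 kb and hsp-16.20 at 1.89 kb. The other 23 of the 26 unbound genes on autosomes lay 2 kb or more from a peak, and the median over the 26 was 13.1 kb. Changing the flank moved the members' count little. With flanks of 0 and 400 bp, 20 and 22 members were bound, beside 15.1 and 17% of all protein-coding genes. With flanks of 600 and 1000 bp it was 23 members at both, beside 18.0 and 19.7%, and with 2000 bp it was 26, beside 23.0%. On the autosomes alone, 23 of 49 members were bound (46.9%), beside 20.3% of all genes there. At least 50% of the body lay within peaks at 10 of the 54 members, beside 9.50% of all protein-coding genes.

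**Figure D4:**
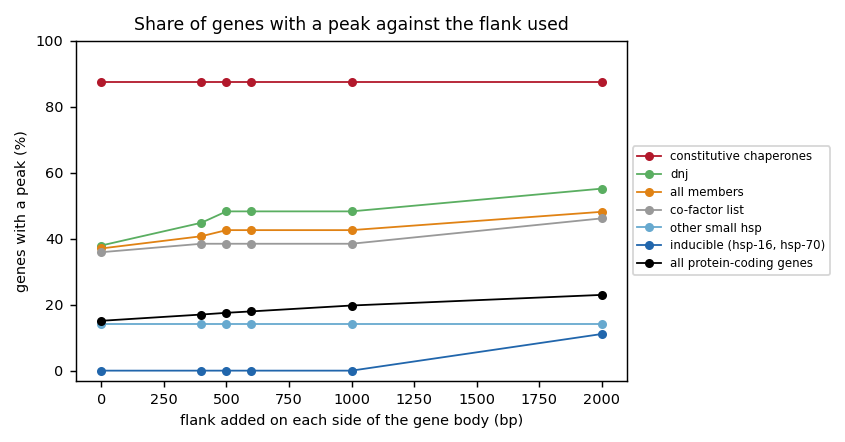
Share of genes with a CEC-7 peak (percent) against the flank added on each side of the gene body (bp), for the classes, the co-factor list and all protein-coding genes. The constitutive class stays at 87.5% at every flank, dnj genes go from 37.9% with no flank to 55.2% at 2000 bp, and the inducible class leaves 0 only at 2000 bp.

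By chromosome, bound members were most frequent on II and III. On chromosome II all 7 members were bound, namely hsp-4 and 6 dnj genes, where 21.3% of protein-coding genes were. On chromosome III it was 7 of 9 (37.2% of all genes there), on I 3 of 10 (29.6%), on IV 2 of 8 (16.1%) and on V 4 of 15 (8.03%). On X it was 0 of 5, and 0.183% of genes there were bound. The 4 bound members on V were hsp-6, hsp-90, dnj-22 and dnj-25. On chromosome I the members' share was thus near that of all genes. Giving each member the share of its own chromosome yields a mean of 19.1% over the 54 genes, beside 17.5% of all protein-coding genes. The classes differed in this mean. It was 20.6% for constitutive, 21.8% for dnj, 15.3% for other small heat shock and 10.4% for inducible genes. What chromosome contributes to the members' share was not tested.

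**Figure D5:**
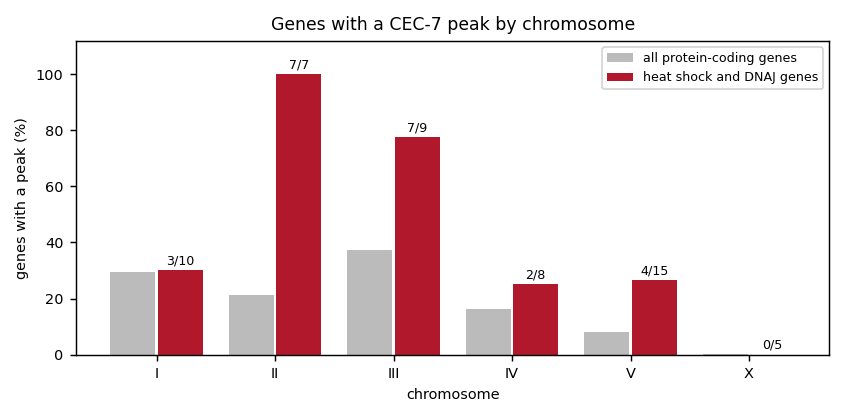
Share of genes with a CEC-7 peak (percent) on each chromosome, for all protein-coding genes (grey) and for the 54 heat shock and DNAJ genes (red, with bound and total members printed above). Members stand at 7 of 7 on II and 7 of 9 on III, and at 3 of 10 on I they are close to the 29.6% of all genes.

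By score, the members' peaks were not high in the list. How score relates to peak width was not examined. The median highest score over the 23 bound members was 105 (quartiles 80.4 and 186), against 176 (96.1 and 345) over all bound protein-coding genes. By rank of the highest peak, 5 of the 23 fell in the top 25% of the list (21.7%, against 37.7% of all bound genes) and 10 between 50 and 75% from the top (43.5%, against 19.5%). Counting only the 50% of peaks with the highest score left 10 of 54 members bound (18.5%) beside 11.2% of all genes, and 3 of the 8 constitutive genes, hsp-1, hsp-75 and hsp-110. At 14 of the 23 bound members the highest peak also touched the body of another protein-coding gene, and at 7 it lay wholly inside the member. The 23 genes carried 30 different peaks, and 6 genes had more than 1. These counts of overlap and of peaks per gene were not made over all bound genes. Whether they are usual for a bound gene is therefore not known.

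Co-factors of the chaperones were read from a list of 39 genes, all of which were in the gene table. The list was chosen with earlier results of these data known. Of these, 15 were bound (38.5%, beside 17.5% of all protein-coding genes), with a mean of 20.7% for genes of the same chromosome and length range. The subunits of CCT, the cytosolic chaperonin that folds actin and tubulin, were bound at 5 of 8 genes (62.5%). Their mean by chromosome and length range was 29.0%. Scores ran from 69.56 at cct-8 to 620.40 at cct-6, and cct-2 was covered over 98.4% of its body. Prefoldin, which hands clients to CCT, had 1 bound gene of 6, pfd-2 with a score of 78.63. That share, 16.7%, was near its mean of 16.0% by chromosome and length range. The co-chaperones of HSP70 and HSP90 had 3 of 11 (27.3%), beside a mean of 21.3% by chromosome and length range. The 3 were daf-41, the p23 gene, with a score of 228.74, hip-1 with 275.39 and pph-5, for a phosphatase that binds HSP90, with 278.56. Unbound were sti-1, cdc-37, ahsa-1, fkb-6, unc-45, bag-1, unc-23 and chn-1.

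Of genes that act in the endoplasmic reticulum, 3 of 7 were bound (42.9%), beside 17.5% of all protein-coding genes and a mean of 18.9% for genes of the same chromosome and length range. All 3 encode chaperones, namely cnx-1 for calnexin (score 642.18), enpl-1 for the HSP90 of that organelle (149.00) and crt-1 for calreticulin (120.78). Between 70.3 and 85.1% of each body was covered. The stress sensors and transcription factors ire-1, xbp-1, pek-1 and atf-6 were unbound, and pek-1 and atf-6 lie on X. For the mitochondrial stress response, atfs-1, dve-1, ubl-5 and haf-1, 0 of 4 genes were bound. The mean for genes of the same chromosome and length range was 12.9%, so a count of 0 among 4 is near the background. These subgroups are small, and no difference between them was tested.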

How the data were processed

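The authors deposited 1 list of peaks for the ChIP library. MACS made the list on WS220 coordinates, per the file headers, and the submitters' processing notes name BWA and ce10. Not given in the sources used here are the version and settings of MACS, whether the input served as control, read filters and pooling. Each deposited peak carries a score by the authors whose scale is not stated. Sequencing depth is unknown.

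Genes were taken from RefSeq's table for WBcel235, another build, with the shift between builds taken as at most about 100 bp. No gene coordinates are printed. The table has no strand, so gene starts were not used, and no sequences were shown. A gene was bound when a peak overlapped its body or 500 bp on either side by at least 1 base, and its highest score was kept. Gene lengths were grouped as under 1 kb, 1 to 2 kb, 2 to 4 kb and over 4 kb. All hsp-16 genes of the table counted as inducible. Classes rest on textbook knowledge, not on expression in these worms. The members and lists were chosen with earlier results of these data known. Named are hsf-1, every hsp gene, the 5 dnj genes with the highest scores, the bound members with the lowest scores and the unbound members with the nearest peak. The other dnj genes and the co-factors are named by role, beyond that rule. With 1 library no test was made. The overlap code was checked on simulated peaks. Python 3.11.15, NumPy 2.4.6, pandas 2.3.3 and matplotlib 3.10.9 were used.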

Additional observations from a re-analysis of the deposited data

How the results depend on the processing

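Flanks of 0, 400, 600 and 1000 bp left 20 to 23 members bound, and 2000 bp left 26, so a shift of 100 bp between builds changed at most 1 call, that of dnj-10. The constitutive class kept 7 of 8 at each of these flanks. The inducible class stayed at 0 of 9 except at 2000 bp, where it was 1, and was 0 of 7 without hsp-16.20 and hsp-16.21. With the 50% of peaks with the highest score, 10 members, 6 dnj genes and 3 constitutive genes were bound. Their shares were 18.5, 20.7 and 37.5%, beside 11.2% of all protein-coding genes. With at least 50% of the gene body within peaks, the counts were 10 members, 4 dnj genes and 8 co-factor genes, beside 9.50% of all protein-coding genes. With at least 90%, chosen after the values were seen, they were 7, 1 and 2, beside 4.47% of all protein-coding genes, and the shares of dnj (3.45%) and co-factor genes (5.13%) were near it. The median highest score at bound members, 105, was 115 with flanks of 0 and 400 bp, 124 with 1000 bp and 126 with 2000 bp. The remaining counts stayed within 1.5 times those reported. Counts at gene starts and the score of the peak nearest a gene start were not run, since the gene table gives no strand. No paired analysis was possible because there is a single ChIP library. Unknown depth limits what an absent peak means: weaker sites are not in the list.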
